A study of Gallus gallus with 20 samples.

Results

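The genes described here encode the cytosolic factors that start protein synthesis and extend the chain, in broiler chickens short of dietary methionine and in their controls. They were taken by gene symbol as every eIF1 to eIF6, eEF1 and eEF2 name in the annotation, without the EIF2AK kinases and the EIF4EBP inhibitors. The rule gave 49 of 17108 genes, of which 14128 carry a symbol. Of the 49, 48 passed the filter on low values, and EIF4E1B, a relative of the cap-binding protein best known from vertebrate oocytes, was listed at 0 in all 20 libraries. EIF2C1 and EIF2C3 match the rule by their older names only. RefSeq lists them as AGO1 and AGO3, Argonaute proteins that bind small RNAs, so 47 members are translation factors or proteins named after them. Symbols of 2 gene models read EEF1A alone, and their neighbouring genes in RefSeq placed EEF1A1 on chromosome 3 and EEF1A2 on chromosome 20. The factors EIF4A1, EIF5A, EEF1G, EIF3C and EIF3G were not analysed here.

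RNA was sequenced from liver and from pectoralis major, the breast muscle, of male Ross 708 broilers, a meat-type chicken, at post-hatch day 35. The deficient birds ate a diet short of L-methionine from week 3 to week 5 of age, and the control birds ate a diet with L-methionine over the same weeks. The 4 groups were liver of deficient birds, liver of control birds, breast of deficient birds and breast of control birds, with 5 libraries each. The labels count 5 deficient and 5 control birds, so the libraries of a tissue were taken as separate birds. Whether a breast library and a liver library with matching numbers share a bird is not stated, and the labels name no muscle fibre type, feed intake or body weight. Libraries are from whole tissue, in which fewer cells of a type and less RNA per cell cannot be told apart.

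Translation begins when eIF2, made of the subunits encoded by EIF2S1, EIF2S2 and EIF2S3, brings the initiator methionyl-tRNA and GTP to the small ribosomal subunit. eIF1, eIF1A and eIF3 hold that subunit open while it scans, eIF5 triggers GTP hydrolysis at the start codon, and eIF5B joins the large subunit. The eIF4 group recruits the mRNA through its cap, and eIF2B recharges eIF2 with GTP, a step that phosphorylated eIF2 blocks when amino acids are scarce. In elongation eEF1A delivers aminoacyl-tRNA, eEF1B recharges eEF1A, and eEF2 moves the ribosome along. EEF2K phosphorylates eEF2 and so slows elongation.

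Values are FPKM, mapped fragments normalised to transcript length and library size, from the deposited files, divided by a library factor taken over all genes of the same tissue ("scaled FPKM"). From coverage and transcript length, 1.40 to 2.75 gigabases were assigned in each library, and the number of reads is unknown. The library factors were 0.768 to 0.989 in breast of deficient birds and 1.02 to 1.27 in breast of control birds, so scaling bears on every breast comparison. In liver, a single gene took 20.9% of the FPKM sum in deficient library 1 and 54.6% in control library 4. The summed level of 8 myocyte markers was 24.4 to 33.7 in liver of deficient birds, 30.9 to 638 in liver of control birds, 103136 to 150653 in breast of deficient birds and 55743 to 97683 in breast of control birds. The 638 belonged to liver control library 1. The hepatocyte marker sums were 22011 to 68013 in liver of deficient birds, 33560 to 59477 in liver of control birds, 707 to 2620 in breast of deficient birds and 1901 to 3232 in breast of control birds. ALB, a defining hepatocyte gene, was listed at 0 as a failed estimate in all 10 liver libraries and at 0.0501 to 0.284 FPKM, scaled, in breast of deficient and 0.0248 to 0.174 in breast of control birds. MYL1 was listed at 0 in all liver libraries of deficient birds and FGA in all breast libraries of control birds.

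The highest levels belonged to elongation factors. In breast of control birds the highest scaled FPKM belonged to EEF1A2 at 2906 ± 492, EEF1A1 at 2618 ± 446, EEF1B2 at 729.8 ± 72.4, EEF2 at 684 ± 53.2 and EIF4A2, an RNA helicase of the cap-binding complex, at 631 ± 33.2 (SD, n = 5). The ranges of the last 3 overlapped. In liver of control birds EEF1A1 led at 4739 ± 745, followed by EEF2 at 688 ± 105, EIF4A2 at 560.1 ± 101, EEF1B2 at 313 ± 35.8 and EEF1D, an eEF1B subunit, at 245 ± 23.8 (SD, n = 5). Apart from EIF4E1B, the lowest in breast of control birds were EIF4ENIF1, EIF2C1, EIF2C3 and EIF4G3, between 2.79 and 5.46 on average. EIF4ENIF1 encodes a transporter of eIF4E and EIF4G3 a relative of the scaffold eIF4G1. In liver of control birds the lowest were EIF2C1, EIF2B4, EIF4ENIF1 and EEF1A2, and EEF1A2 ranged from 0.0220 to 0.274 in 4 libraries with 16.4 in control library 1. FPKM is per length, so these levels can be set roughly beside each other across genes. The comparison also rests on complete gene models and on how shared reads were divided, which were not tested.

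With the scaling used here, breast muscle of deficient birds held more mRNA of many initiation factors, and of the muscle form of eEF1A, than breast muscle of control birds. Of the 48 members tested, 15 were called higher, 1 was called lower and 32 did not pass the test. Without scaling 1 was called higher and 8 lower, and with quantile normalization 5 higher and 2 lower. Members were called by limma on log2(scaled FPKM + 1) where the p adjusted by Benjamini-Hochberg across the 10173 genes in the fit was under 0.05. Among those genes the higher calls came to 14.2% and the lower calls to 13.9%. The median difference of the 48 members, deficient minus control, was 0.18 on the log2 scale, beside 0.02 over all genes tested. Of the 48 differences 38 were positive, beside 5353 of the 10173 over all genes. Among genes averaging 5 scaled FPKM or more, 15 of 45 members and 1314 of 6057 genes were called higher, and 0 and 767 lower. The medians there were 0.20 for the members and 0.10 for all genes, closer together than in the main fit. This filter is a floor, and genes matched to the members in level were not compared. In 8 members every deficient library lay above every control library and in 1 every deficient library lay below, beside 8.9% and 9.46% of all genes tested. By role, 7 of 10 factors of start codon selection were called higher, against 2 of 5 eIF2B subunits, 1 of 11 eIF3 subunits, 2 of 11 eIF4 factors, 2 of 5 eEF1 genes and 1 of the pair EEF2 and EEF2K.

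**Figure D1:**
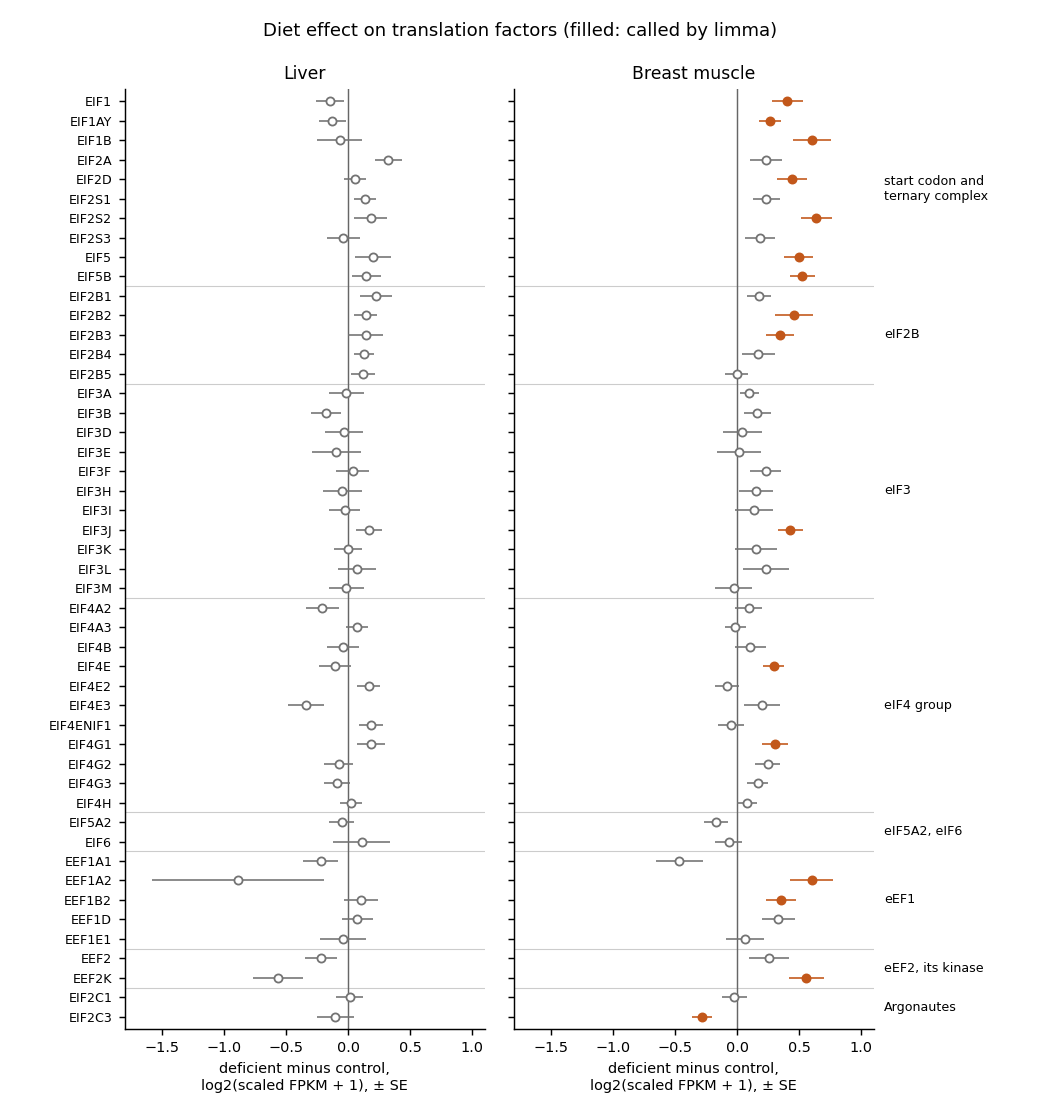
Difference in log2(scaled FPKM + 1), deficient minus control, for 48 members ordered by role, in liver (left) and breast muscle (right), with bars for the standard error and filled points for members called at an adjusted p under 0.05. Breast holds 16 filled points, 15 of them to the right of 0, and liver holds 0.

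The start codon factors EIF2S2 and EIF1B carried the largest breast differences, followed by the elongation genes EEF1A2 and EEF2K. EIF2S2, the beta subunit of eIF2, had 90.8, 97.8, 126, 102 and 97.5 scaled FPKM in the deficient breast libraries, against 69.0, 50.7, 70.8, 66.3 and 72.3 in the control breast libraries. No deficient library fell to the level of a control library. EIF2S2 rose by 0.64 on the log2 scale (SE 0.12, limma adjusted p = 0.00505), on chromosome 20 at 1976105 to 1987323 of galGal4. Its partner subunits were not called: EIF2S1, the alpha subunit that the eIF2 kinases phosphorylate, differed by 0.24 (limma adjusted p = 0.133), and EIF2S3, the gamma subunit that binds GTP, by 0.19 (limma adjusted p = 0.267). EIF2S1 had 37.2, 33.5, 49.98, 41.8 and 36.0 scaled FPKM in deficient and 36.0, 32.4, 31.9, 31.1 and 34.9 in control breast libraries, with overlapping groups. The 3 subunits form a single complex, and whether their differences differ from each other was not tested.

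EIF5B, the GTPase that joins the large subunit, had 27.6, 26.2, 28.8, 29.6 and 21.5 scaled FPKM in the deficient breast libraries, against 19.1, 15.7, 18.5, 17.4 and 20.3 in the control breast libraries. The groups did not overlap, and EIF5B rose by 0.53 on the log2 scale (SE 0.10, limma adjusted p = 0.00545). EIF5, the activator of GTP hydrolysis by eIF2, had 193, 239, 278, 244 and 249 scaled FPKM in deficient and 166, 165, 174, 147 and 198 in control breast libraries. Only deficient library 1 lay below the highest control library, and EIF5 rose by 0.50 (SE 0.12, limma adjusted p = 0.0118).

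eIF1 guards against wrong start codons, and the chicken files hold EIF1 and its close relative EIF1B. EIF1B had 124, 107, 147, 120.0 and 97.6 scaled FPKM in the deficient breast libraries, against 68.9, 62.0, 95.8, 71.5 and 94.2 in the control breast libraries. The lowest deficient library lay just above the highest control library, and EIF1B rose by 0.60 (SE 0.15, limma adjusted p = 0.0153). EIF1 had 154, 177, 229, 166 and 156 scaled FPKM in deficient and 128, 116, 136, 129 and 149.8 in control breast libraries, and rose by 0.40 (SE 0.12, limma adjusted p = 0.0334) with no overlap. The EIF1 gene model spans chromosome 27 from 4505836 to 4644100 and runs over 7 named keratin genes, and how reads were shared between EIF1, EIF1B and overlapping genes is not given in the sources used here. EIF1AY, which RefSeq lists as the eIF1A gene EIF1AX, lies on chromosome 1. It ranged over 99.3 to 117 scaled FPKM in deficient and 85.3 to 104 in control breast libraries, and rose by 0.27 (SE 0.09, limma adjusted p = 0.0452). EIF2D, which can place initiator tRNA without eIF2, rose by 0.44 (SE 0.12, limma adjusted p = 0.0221), and ranged over 8.30 to 14.5 in deficient and 7.32 to 8.44 in control breast libraries. EIF2A, another protein able to bind initiator tRNA, differed by 0.23 (limma adjusted p = 0.212).

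**Figure D2:**
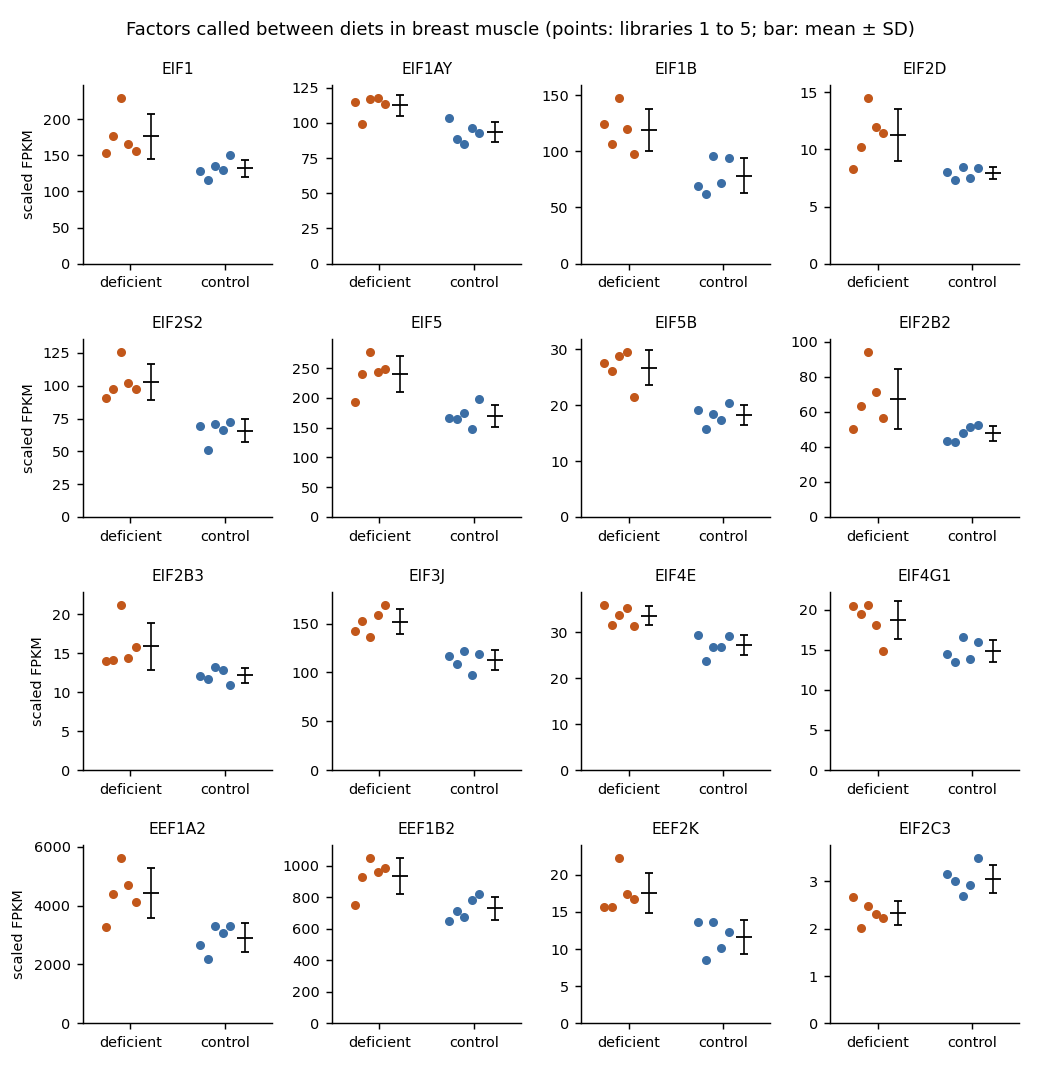
Scaled FPKM of the 16 members called in breast muscle, each point a library, with 5 deficient libraries on the left and 5 control libraries on the right of each panel, and the mean ± SD. EIF2C3 is the only panel of the 16 in which the deficient libraries lie below the control libraries.

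Within eIF2B, 2 of 5 subunits were called, and differences between subunits were not tested. EIF2B2 (beta) had 50.4, 63.2, 94.2, 71.0 and 56.6 scaled FPKM in deficient breast libraries, against 43.5, 43.0, 47.8, 51.4 and 52.2 in control breast libraries. Deficient library 1 lay among the control libraries, and EIF2B2 rose by 0.46 (SE 0.15, limma adjusted p = 0.0456). EIF2B3 (gamma) rose by 0.35 (SE 0.11, limma adjusted p = 0.0434), and its groups did not overlap, with 14.0 to 21.2 in deficient and 10.9 to 13.2 in control breast libraries. EIF2B5, the catalytic subunit, averaged 6.54 ± 1.05 scaled FPKM in deficient and 6.51 ± 0.379 in control breast libraries (SD, n = 5 each), and was not called (SE 0.09 on the log2 scale, limma adjusted p = 0.986). Without scaling EIF2B5 was called lower (−0.29, limma adjusted p = 0.0351). EIF2B1 and EIF2B4 differed by 0.18 and 0.17 and were not called.

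Of the 11 eIF3 genes, the scaffold on the small ribosomal subunit, only EIF3J was called in breast. EIF3J, a loosely attached subunit, had 143, 153, 136, 159 and 169 scaled FPKM in the deficient breast libraries, against 117, 109, 122, 96.9 and 119 in the control breast libraries. The groups did not overlap, and EIF3J rose by 0.43 (SE 0.10, limma adjusted p = 0.0105). The other 10 eIF3 genes differed by −0.03 for EIF3M to 0.23 for EIF3L and EIF3F, and the median of the 11 was 0.15. EIF3L had 108, 142, 239, 154 and 188 scaled FPKM in deficient breast libraries, a range that spans the 121 to 151 of the control breast libraries.

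In the cap-binding group, EIF4E, the protein that binds the mRNA cap, had 35.9, 31.6, 33.7, 35.2 and 31.4 scaled FPKM in the deficient breast libraries, against 29.4, 23.8, 26.9, 26.9 and 29.1 in the control breast libraries. The groups did not overlap, and EIF4E rose by 0.29 (SE 0.08, limma adjusted p = 0.0248). EIF4G1, the scaffold that joins cap and ribosome, rose by 0.31 (SE 0.10, limma adjusted p = 0.0470), with 14.8 to 20.6 in deficient and 13.4 to 16.6 in control breast libraries. EIF4G2, a relative without the eIF4E site, differed by 0.25 (limma adjusted p = 0.0909), and EIF4A2 by 0.09 (limma adjusted p = 0.538). The median of the 11 tested was 0.11. EIF5A2, which eases peptide bond formation, differed by −0.17 (limma adjusted p = 0.218), and EIF6, which keeps free large subunits apart, by −0.07 (limma adjusted p = 0.673). EIF5A2 was called lower without scaling (−0.50, limma adjusted p = 0.0111) and with quantile normalization (−0.35, limma adjusted p = 0.0266). EIF6 was called lower without scaling (−0.39, limma adjusted p = 0.0130) and not with quantile normalization (limma adjusted p = 0.137).

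The eEF1A pair held a larger part of EEF1A2 in breast of deficient birds. EEF1A2, the form known in mammals from muscle, heart and neurons, had 3258, 4407, 5607, 4712 and 4110.2 scaled FPKM in the deficient breast libraries, against 2661, 2169, 3317, 3062 and 3321 in the control breast libraries. Deficient library 1 lay below the 2 highest control libraries, and EEF1A2 rose by 0.60 (SE 0.17, limma adjusted p = 0.0244). EEF1A1, the form found in most tissues, had 1367, 1831, 2082, 1659.9 and 2675 scaled FPKM in deficient and 2269.7, 3066, 2101, 3070.0 and 2583 in control breast libraries. Its groups overlapped, and the difference of −0.46 (SE 0.19) did not pass the test (limma adjusted p = 0.0848).

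The share of EEF1A2 in the summed FPKM of the pair needs no scaling between libraries. It was 70.4%, 70.6%, 72.9%, 73.9% and 60.6% in the deficient breast libraries, against 54.0%, 41.4%, 61.2%, 49.9% and 56.2% in the control breast libraries. Only deficient library 5 lay below the highest control library. The share averaged 69.7 ± 5.32% in deficient and 52.6 ± 7.44% in control birds (SD, n = 5 each), a difference of 17.1 points (two-sided exact permutation test over 252 labelings, p = 0.0159, smallest possible 0.00794). The share was chosen as a measure after its values were seen, and without any single library the difference was 14.4 to 19.4 points. The sum of the pair, on the scale of all 20 libraries, was 6362 ± 1124 in deficient and 5460.4 ± 494 in control breast libraries (SD, n = 5 each). How reads that match both genes were divided is not given in the sources used here. The myocyte markers differed between the diets in the same direction as EEF1A2. All 7 of those tested were called higher in breast of deficient birds, with a median of 0.80. Whether they follow EEF1A2 from library to library, and their part in its rise, was not tested.

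**Figure D3:**
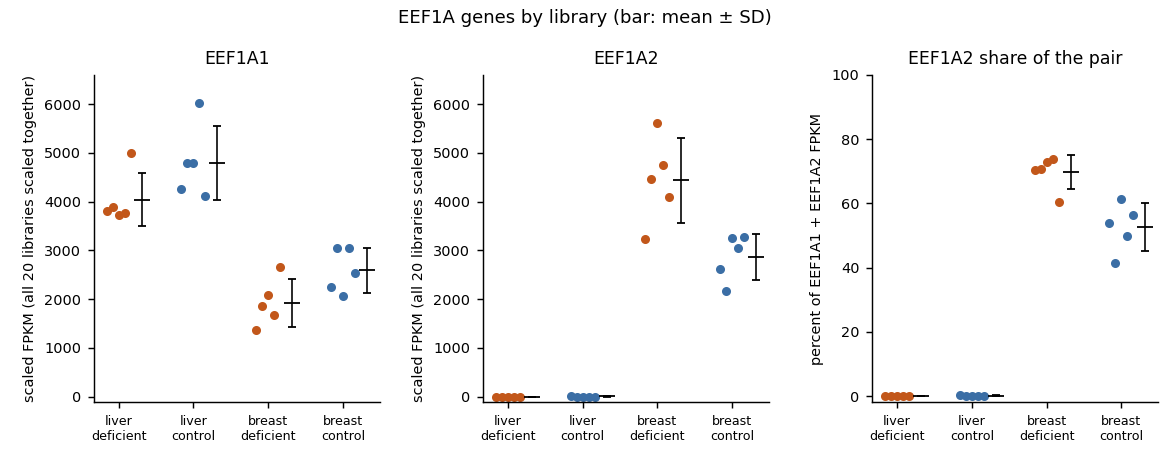
Scaled FPKM of EEF1A1 and EEF1A2, on the scale of all 20 libraries, and the percent of the pair's sum that is EEF1A2, for liver deficient, liver control, breast deficient and breast control libraries, each point a library. In breast the share averages 69.7% in deficient and 52.6% in control birds, and in liver nearly all of the sum is EEF1A1.

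Among the remaining elongation genes, EEF1B2, the subunit that recharges eEF1A, had 750.3, 927, 1049, 963 and 987 scaled FPKM in deficient and 650.1, 717, 676, 784 and 822 in control breast libraries. It rose by 0.35 (SE 0.12, limma adjusted p = 0.0458), with overlapping groups. EEF1D differed by 0.33 (limma adjusted p = 0.0870) and EEF1E1, better known as a part of the tRNA synthetase complex, by 0.07 (limma adjusted p = 0.772). EEF2 had 548, 819, 1087, 819 and 904 scaled FPKM in deficient and 661, 658, 641, 775 and 685 in control breast libraries, and its difference of 0.26 did not pass the test (limma adjusted p = 0.262). EEF2K, the kinase that inhibits eEF2, had 15.6, 15.6, 22.2, 17.5 and 16.8 in deficient and 13.6, 8.58, 13.7, 10.1 and 12.3 in control breast libraries. The groups did not overlap, and EEF2K rose by 0.56 (SE 0.14, limma adjusted p = 0.0150). It lies on chromosome 14 at 8636416 to 8660489.

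The single member called lower in breast was the Argonaute gene EIF2C3. It had 2.67, 2.02, 2.47, 2.31 and 2.22 scaled FPKM in deficient and 3.15, 3.02, 2.70, 2.93 and 3.49 in control breast libraries, with no overlap, and fell by 0.28 on the log2 scale (SE 0.08, limma adjusted p = 0.0302). EIF2C1 differed by −0.02. With quantile normalization EIF2C3 was not called (limma adjusted p = 0.174).

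The size of the breast result depended on scaling and on single libraries. With FPKM as deposited the median of all genes was −0.25, that of the members −0.12, and 9.18% of the 3539 genes called were higher, beside 50.5% of 2861 with scaling. Members above the median of all genes numbered 37 with scaling and 35 without, and 25 with quantile normalization, where the medians were 0.06 for members and 0.04 for all genes. Of the 15 members called higher, 10 kept the call with upper-quartile scaling, 5 with quantile normalization and 1, EIF2S2, without scaling. The 5 were EIF2S2, EIF5B, EEF2K, EIF2D and EIF1B. With quantile normalization EEF1A2 (limma adjusted p = 0.0948), EIF5 (limma adjusted p = 0.0563) and EIF3J (limma adjusted p = 0.174) were not called. In the unscaled values EIF4E, EIF4G1 and EIF1AY changed sign, with −0.03, −0.01 and −0.06. Leaving out each breast library in turn gave 6 members called higher without control library 2 or deficient library 4, 7 without control library 4 and 9 without control library 1, and up to 16 without deficient library 1. EIF2S2, EIF1B, EIF5B, EIF5, EIF3J and EEF2K were called in all 10 of these fits. EEF1A2, EIF2D and EIF4E lost their calls in 3, EIF1 and EIF2C3 in 6, EIF2B3 in 7, and EEF1B2, EIF1AY, EIF2B2 and EIF4G1 in 8. Markers of other cells moved with the same comparison. The summed level of 9 macrophage markers was 945 to 1087 in deficient and 1679 to 2043 in control breast libraries, and all 9 were called lower, with a median of −1.25. Of the hepatocyte markers 4 of 5 tested were called lower, of the fibroblast markers 2 of 7, and of the erythroid markers 0 of 3. All 5 hepatocyte and all 7 fibroblast differences were negative, with medians of −1.25 and −0.44, as was 1 of 3 erythroid differences. The part of these other cells in the member differences was not tested.

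The deficient breast libraries were also less alike. The coefficient of variation was larger in deficient than in control breast libraries for 41 of 48 members, 9 of the 11 eIF3 genes among them. Its median over members was 15.8% in deficient and 9.09% in control breast libraries, beside 18.6% and 13.3% over all genes tested. Deficient breast library 1 was the lowest of its group for 27 of 48 members and for 10 of the 11 eIF3 genes, and deficient library 3 the highest for 26 members. Matching counts over all genes were not made. The library factors were 0.987 for deficient library 1 and 0.768 for deficient library 3, so scaling raised the values of library 3 more. The part of scaling in these positions was not tested. Without both of these libraries, 8 of the 15 kept their call. In liver the coefficient was larger in deficient than in control libraries for 15 of 48 members.

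Genes that act beside these factors were described from lists of regulators, release and recycling factors, and the mitochondrial translation factors. Of 18 regulators tested in breast, 6 were called higher and 1 lower, beside 14.2% and 13.9% of all genes. PABPC4, a poly(A)-binding protein, rose by 0.88 (SE 0.16, limma adjusted p = 0.00441) and RPS6KB2, an S6 kinase, by 0.72 (SE 0.18, limma adjusted p = 0.0142). MCTS1, which works with DENR to restart ribosomes, rose by 0.39 (limma adjusted p = 0.0149), and EIF2AK1, a heme-regulated eIF2 kinase, by 0.33 (limma adjusted p = 0.0161). Named after their values were seen, DENR and PAIP2, an inhibitor of poly(A)-binding protein, also rose (0.29 and 0.28), EIF2AK3, the eIF2 kinase of the endoplasmic reticulum, fell (−0.28, limma adjusted p = 0.0370), and EIF2AK4, the eIF2 kinase that senses uncharged tRNA, differed by 0.01 (limma adjusted p = 0.914). With each breast library left out in turn, EIF2AK3 lost its call in 7 of 10 fits and DENR and PAIP2 in 5 each. EIF4EBP1, an inhibitor of eIF4E, differed by 0.41 and was not called (limma adjusted p = 0.0548). Of 7 mitochondrial factors 4 were called higher: MTIF3 by 0.62, MTIF2 by 0.47, GFM1 by 0.46 and MRRF by 0.35, with limma adjusted p between 0.00724 and 0.0277, and MRRF lost its call in 3 of 10 such fits. Of 6 release and recycling factors none was called higher, and RRBP1, a ribosome-binding protein of the endoplasmic reticulum, was the 1 called lower (−0.67, limma adjusted p = 0.00384). The other 5 differences were positive, and the median of the 6 was 0.31. Of the 6, 5 had an unadjusted limma p under 0.05, RRBP1 among them.

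In liver no member was called. The limma fit called 0 of 10180 genes, with 848 at an unadjusted p under 0.05, and 0.943% and 0.923% of genes had deficient libraries wholly above or below the control libraries. None of the 48 members had groups that did not overlap. The median member difference was −0.01, beside 0.01 over all genes, and 3 members had an unadjusted p under 0.05. EIF2A had 11.0, 11.6, 12.9, 11.3 and 9.27 scaled FPKM in the deficient liver libraries, against 9.16, 9.11, 7.26, 7.99 and 10.4 in the control liver libraries, a difference of 0.32 (SE 0.11, limma adjusted p = 0.444). EEF2K had 4.39, 8.15, 3.64, 5.74 and 5.92 in deficient and 8.74, 11.96, 6.60, 6.66 and 9.23 in control liver libraries, a difference of −0.56 (SE 0.20, limma adjusted p = 0.460). EIF4E3, a cap-binding relative of eIF4E, differed by −0.34 (limma adjusted p = 0.568), with 22.6 to 35.4 in deficient and 29.6 to 41.1 in control liver libraries. EEF1A2 gave the most negative value, −0.89 (SE 0.69, limma adjusted p = 0.815), and passed the filter in liver only through control library 1. The 5 eIF2B subunits each had a small positive difference, between 0.12 and 0.22, and none was called. None of the context genes was called in liver, with 0 of 18 regulators, 0 of 7 mitochondrial factors and 0 of 6 release and recycling factors.

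Whether the diet difference was the same in both tissues was tested as the liver difference minus the breast difference over 9140 genes, of which 5.25% were called higher and 3.99% lower. The labels count 10 birds for the 20 libraries, so by that count liver and breast libraries share birds. Which libraries share a bird is not stated, and the fit takes all libraries as independent, which that count does not allow. Of the 48 members 0 were called higher and 2 lower, and the 4.17% called lower was near the share over all genes. The member median was −0.18, beside −0.02 over all genes, and 36 member values were negative, beside 4733 of the 9140 over all genes. Without scaling these medians were 0.20 for the members and 0.30 for all genes, and with quantile normalization 0.02 and −0.02. EEF2K gave −1.12 (SE 0.25, limma adjusted p = 0.0112): its difference was −0.56 in liver, not called on its own, and it rose by 0.56 in breast. With each of the 20 libraries left out in turn its value was −1.25 to −1.01 and the largest limma adjusted p 0.0262, and without scaling it was −0.77 (limma adjusted p = 0.0158). EIF1 gave −0.55 (SE 0.16, limma adjusted p = 0.0393), from −0.15 in liver and 0.40 in breast. EIF1 had 56.9, 58.7, 51.4, 50.9 and 63.8 scaled FPKM in the deficient liver libraries, against 62.0, 70.5, 51.6, 63.0 and 65.4 in the control liver libraries. The call for EIF1 was lost in 14 of the 20 fits that left out a library, and without scaling its value was −0.17 (limma adjusted p = 0.332). With same-numbered liver and breast libraries of a diet treated as the same bird, EIF1 was not called. In that fit EEF2K (limma adjusted p = 0.0368) and EIF4E3 (limma adjusted p = 0.0373) were called. EIF1AY (−0.39, limma adjusted p = 0.0575), EIF1B (−0.67, limma adjusted p = 0.0833) and EIF4E (−0.40, limma adjusted p = 0.0971) were next and were not called. For the remaining breast calls, a difference between tissues was not shown. Of the context genes, PABPC4 (−0.76, limma adjusted p = 0.0227) and MTIF3 (−0.61, limma adjusted p = 0.0342) were called.

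**Figure D4:**
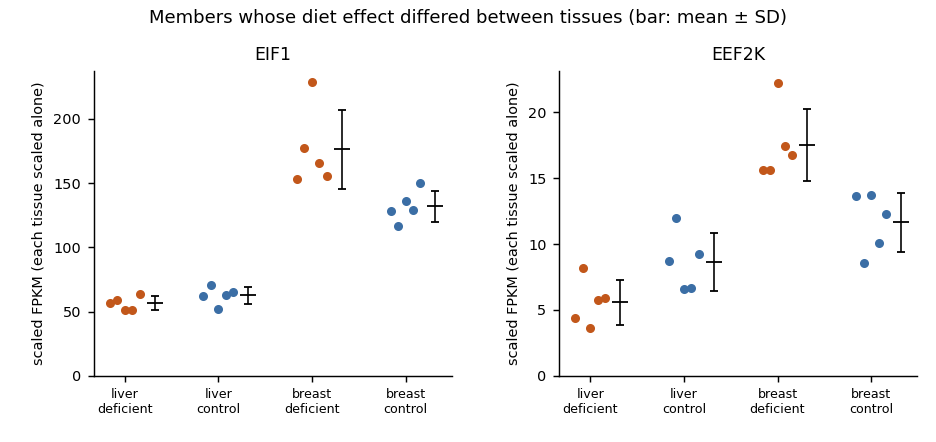
Scaled FPKM of EEF2K and EIF1, the members called for a diet difference between tissues with libraries taken as independent, in liver deficient, liver control, breast deficient and breast control libraries, each point a library with the mean ± SD. Each tissue is scaled on its own libraries, so levels are compared within a tissue. EEF2K lies between 3.64 and 8.15 in deficient and between 6.60 and 11.96 in control liver libraries. In breast it lies between 15.6 and 22.2 in deficient and between 8.58 and 13.7 in control libraries.

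Translation factor mRNAs were more often called lower than higher in liver against breast muscle. These levels use 1 scale over all 20 libraries, and 10764 genes were tested in 1 fit, in which the diets share the estimate of spread. That fit takes the libraries as independent, although by the count of 10 birds the 2 tissues share birds. On the deficient diet 4 members were called higher in liver and 33 lower, beside 37.4% and 36.2% of all genes, and the median difference, liver minus breast, was −0.51. Groups did not overlap for 2 members above and 27 below, beside 29.4% and 28.8% of all genes. On the control diet 3 were called higher and 23 lower, beside 35.7% and 33.8% of all genes, with a median of −0.26. Groups did not overlap for 2 members above and 22 below, beside 29.9% and 28.2% of all genes. Without scaling the medians of all genes were 0.17 on the deficient and −0.15 on the control diet, and those of the members −0.32 and −0.48. The 23 members called lower on the control diet were all called lower on the deficient diet too. Another 10 passed the test on the deficient diet and not on the control diet, which does not show that the diets differ.

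EEF1A2 differed most between the tissues among the 48 members. On the common scale it ran from 0 to 0.126 scaled FPKM in liver of deficient birds and from 0.0221 to 16.8 in liver of control birds, against 3237 to 5606 in breast of deficient birds and 2158 to 3272 in breast of control birds. The 16.8 belonged to liver control library 1, the library with the raised myocyte markers, and the other 4 were at most 0.280 on this scale. EEF1A1 was higher in liver, by 1.09 on the deficient diet (limma adjusted p = 4.91e-06) and by 0.89 on the control diet (limma adjusted p = 6.27e-05). Its medians were 3811 in liver and 1856 in breast of deficient birds, and 4786 in liver and 2545 in breast of control birds.

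After EEF1A2, the most negative values on the control diet belonged to EIF3J at −1.53, EIF2B3 at −1.40, EIF2B2 at −1.25 and EEF1B2 at −1.19. On the deficient diet the same genes gave −1.84, −1.64, −1.61 and −1.48. The limma adjusted p was at most 4.31e-08 for these genes on either diet, and the groups did not overlap for any of them. EIF3J, for example, had a median of 41.3 in liver and 155 in breast of deficient birds, and of 40.0 in liver and 115 in breast of control birds. EEF2K was lower in liver on the deficient diet (−1.53, limma adjusted p = 2.34e-07), and on the control diet its −0.37 was not called (limma adjusted p = 0.0728).

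Besides EEF1A1, few members were higher in liver. EIF4E3 was higher by 0.66 on the deficient diet (limma adjusted p = 0.000445) and by 1.24 on the control diet (limma adjusted p = 2.76e-07), with medians of 27.1 in liver and 17.9 in breast of deficient birds, and 35.7 in liver and 15.4 in breast of control birds. EIF5 passed the test on the control diet, higher in liver (0.41, limma adjusted p = 0.00706), and under quantile normalization that value was −0.09. EIF2C3 (0.33) and EIF4ENIF1 (0.24) were called higher in liver on the deficient diet. The call for EIF2C3 was lost in 3 of the 20 fits that left out a library. With same-numbered liver and breast libraries of a diet treated as the same bird, EIF2C3 was called and EIF4ENIF1 was not. EIF5A2 differed by 0.16 on the deficient and 0.09 on the control diet without a call.

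**Figure D5:**
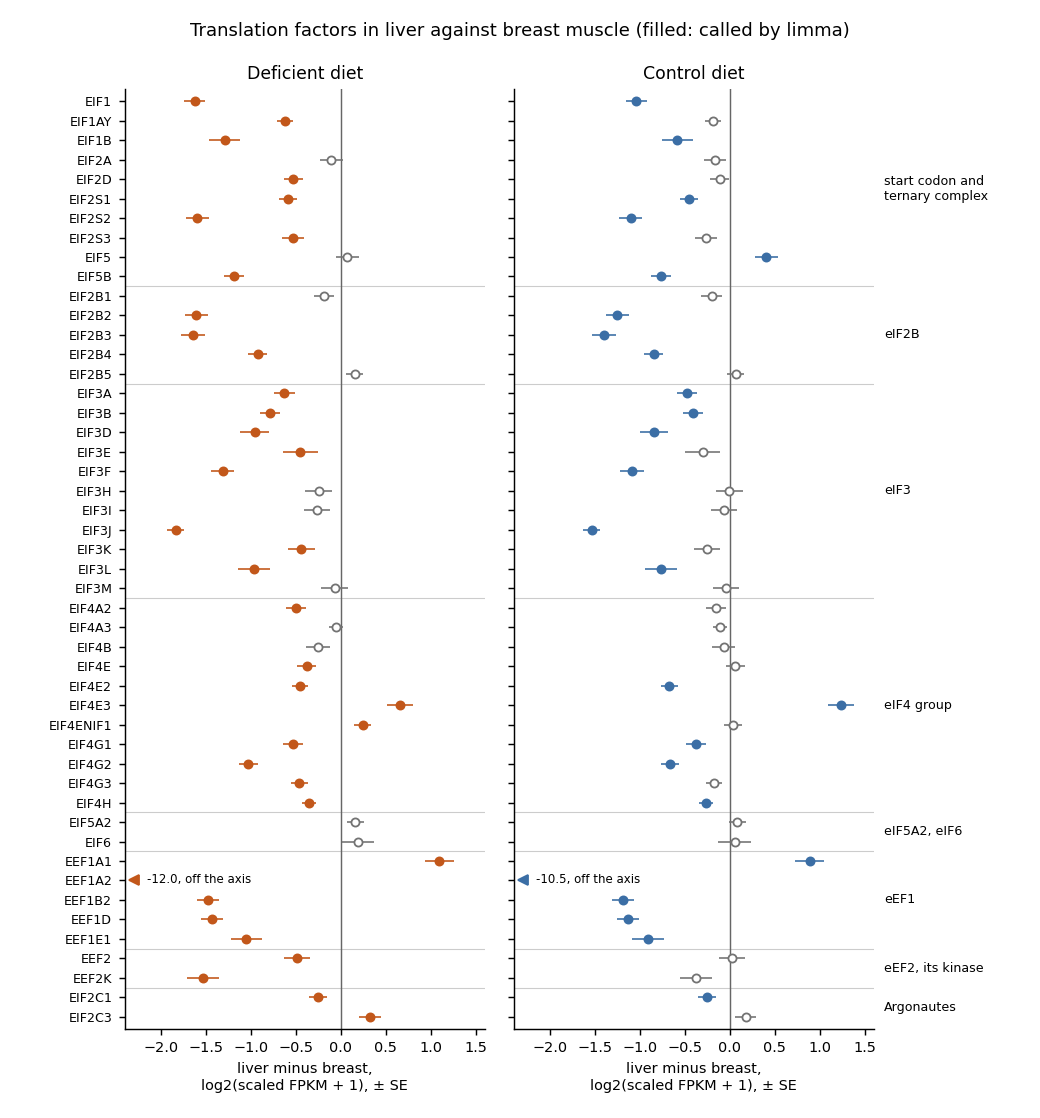
Difference in log2(scaled FPKM + 1), liver minus breast, for the members by role on the deficient diet (left) and the control diet (right), with bars for the standard error and filled points for calls. EEF1A2 lies beyond the axis at −12.02 and −10.51, values set by the pseudocount because it is near 0 in liver, and most filled points lie left of 0.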

How the data were processed

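Per the labels' protocols, total RNA was extracted with Trizol from frozen breast muscle and liver, and libraries were made with an Illumina TruSeq RNA kit. Strand handling is not given in the sources used here. The authors deposited FPKM per gene and per isoform for each library, in the Cufflinks tracking format per the file headers. The submitters' processing notes name TopHat2 2.0.9, Bowtie 1.0.0, Cufflinks 2.1.1, Cuffdiff 2.1.1 and the galGal4 build, with no role or order. The isoform files hold, per the file headers, transcript length and coverage, a signal of read depth, from which assigned bases were computed. No file gives read counts, so no count model was fitted and no counting interval can be given. The deposited confidence bounds did not contain the FPKM for 12.6 to 18.5% of values and were not used.

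Each library's FPKM was divided by a median-of-ratios factor, taken against geometric means of the genes detected in all libraries, within a tissue for diet comparisons and over the 20 libraries for tissue comparisons. Genes averaging 1 scaled FPKM or more were tested on log2(scaled FPKM + 1), which understates the change of low genes. Genes with a failed estimate in a library used were left out, and no member had one. Models came from limma 3.58.1 (R 4.3.3) with its variance trend, fitted by tissue for diet and over 4 group means otherwise. Two-sided p-values were adjusted across every gene of a fit by Benjamini-Hochberg, with calls under 0.05. The share of EEF1A2 was tested in SciPy 1.17.1 under Python 3.11.15. The procedure was run on simulated data with known changes, in which library factors were drawn without regard to diet. That run cannot show how the fits behave where library factors differ between the diets, as they did in breast. The limma p-values set each difference against the spread between libraries within groups. In limma each gene's variance is drawn towards a trend over all genes.

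The members and gene lists were chosen with earlier results of these data known. Named by rule are members called in a diet comparison or its tissue difference and a panel (EEF1A1, EEF1A2, EEF2, EEF2K, EIF2S1, EIF2B5, EIF4A2, EIF4E, EIF4EBP1, EIF4G1, EIF6). The rule adds the 5 highest and 5 lowest members of each tissue, the 5 largest liver minus breast values of each sign on the control diet, and up to 4 genes of each context list by p. Further members are named beside their partners in a complex, chosen after their values were seen. RefSeq names came from a GRCg7b table, whose coordinates were not used. All 49 members matched it, 47 on the same chromosome. Of the members, 16 overlap another annotated gene and 4 a named one. Alternatives covered scaling, pseudocount, filter, variance model, library weights, isoform sums, failed estimates, thresholds, a replicate block, and leaving out libraries. In the diet fits of a tissue the block joined same-numbered deficient and control libraries, which were taken as different birds. In the fits across tissues it joined same-numbered liver and breast libraries of a diet.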

Additional observations from a re-analysis of the deposited data

Results flagged for a closer look

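Of 115 groups of 5 libraries examined, 7 held a library far from the others, where chance gives about 1 in 20 groups. In liver of deficient birds, library 5 had 4988 scaled FPKM of EEF1A1, against 3762 to 3879 in the other 4, and library 2 had 15.5 of EIF4G1, against 11.4 to 12.4. In liver of control birds, library 1 had 16.4 of EEF1A2, against 0.0220 to 0.274, and the same library had a myocyte marker sum of 638 where the other control liver libraries had at most 36.0. In breast of deficient birds, library 3 had 22.2 of EEF2K, against 15.6 to 17.5, and 21.2 of EIF2B3, against 14.0 to 15.8, while library 2 had 99.3 of EIF1AY, against 114 to 117. In breast of control birds, library 2 had 50.7 of EIF2S2, against 66.3 to 72.3. EIF2S2, EEF2K, EIF2B3 and EIF1AY kept their breast calls without the library named here, with limma adjusted p of 0.0449 for EIF2B3 and 0.0322 for EIF1AY, which lost their calls in 7 and 8 of the 10 fits without a single breast library.

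The diet difference was called different between tissues for EEF2K (−1.12 on the log2 scale, liver minus breast, limma adjusted p = 0.0112) and EIF1 (−0.55, limma adjusted p = 0.0393). These 2 of 48 members are 4.17%, near the 3.99% called lower over all 9140 genes tested. For EEF2K, 5 of 5 deficient breast libraries lay above all control breast libraries, and the liver groups overlapped. The call for EIF1 was lost in 14 of the 20 fits without a single library. It was also lost with same-numbered liver and breast libraries of a diet treated as the same bird.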

How the results depend on the processing

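Under the other settings, single-gene results kept direction and side of the threshold in 621 cases, lost the call in 73, gained it in 6 and changed sign in 15, and no member was called in liver under any setting run. Members called higher in breast were 2 at an adjusted p under 0.01, 1 without scaling, 5 with quantile normalization, 8 with the replicate block and 9 without deficient libraries 1 and 3. Members called lower there were 0 at an adjusted p under 0.01, with the filter at 5 FPKM or with the block, 2 at an adjusted p under 0.10, with quantile normalization or with library weights, and 8 without scaling. All genes called higher and lower in breast were 398 and 639 at an adjusted p under 0.01 and 325 and 3214 without scaling, 884 were called higher without deficient libraries 1 and 3, and 767 lower with the filter at 5 FPKM, which raised the higher share of calls to 63.1%, beside 40.8% with upper-quartile scaling. In liver 1 gene was called lower at an adjusted p under 0.10 or with the filter at 5 FPKM, and 1 higher and 1 lower without a filter. For the tissue difference, members called lower were 0 at an adjusted p under 0.01, 5 at 0.10, and 1 without scaling, with quantile normalization, or without liver control 4 and deficient 1; 5 were called higher without scaling. All genes called higher and lower there were 140 and 50 at an adjusted p under 0.01, 726 and 687 at 0.10 and 1794 and 72 without scaling, with 256 higher under the filter at 5 FPKM and 219 lower without those 2 libraries. Members higher in liver on the deficient diet were 2 at an adjusted p under 0.01, with quantile normalization and with the filter at 5 FPKM, and members lower in liver on the control diet were 35 without scaling and 37 with quantile normalization. With the filter at 5 FPKM, a fit that tested fewer genes, 2510 genes were higher in liver on the deficient diet. On the control diet 2559 were higher and 2376 lower. Without scaling the breast values of DENR (−0.034), EEF2 (−0.076), EIF1AY (−0.065), EIF2S1 (−0.089), EIF4A2 (−0.24), EIF4E (−0.028), EIF4G1 (−0.0085) and PAIP2 (−0.054) changed sign, as did EIF2B5 (0.023) and EIF4A2 (−0.084) under quantile normalization. The liver minus breast value of EIF5 was −0.15 on the deficient and −0.091 on the control diet under quantile normalization, and that of EIF5A2 on the control diet −0.13 without scaling, −0.015 with upper-quartile scaling and −0.22 with quantile normalization. EEF1A1 was called lower in breast without scaling (−0.80), with quantile normalization (−0.64) and with library weights (−0.54). The cause of these moves was not tested. With each library left out in turn, 6 to 16 members were called higher and 0 to 2 lower in breast, with 845 to 1667 genes higher; in liver 0 to 2 genes were higher and 0 to 9 lower. For the tissue difference 1 to 5 members were lower, 290 to 593 genes higher and 166 to 542 lower, and 2 to 5 members were higher in liver on the deficient diet. EIF2B5 ranged over −0.078 to 0.032 and EIF6 over −0.14 to 0.0011 in breast, and the liver minus breast value of EIF5 on the deficient diet over −0.0070 to 0.12. In the main fits the replicate numbers were not treated as pairs, since the labels do not match libraries to birds. Within a tissue, same-numbered deficient and control libraries correlated at −0.21 to 0.10. Same-numbered liver and breast libraries of a diet correlated at −0.012 to 0.22, most of them above 0. Whether these come from the same birds was not tested. With the replicate block the members called for the tissue difference were EEF2K (limma adjusted p = 0.0368) and EIF4E3 (0.0373), and EIF1 was not (0.0849). Depth in reads is unknown, so the precision of low members such as EIF2C3 cannot be stated beyond their spread.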

Other observations

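Of the 49 members, 4 have 2 annotated isoforms each, whose FPKM gives a share that needs no scaling between libraries. The isoform of EIF4G2 with 4212 nt took 40.6 to 47.2% of the gene's FPKM in liver of deficient birds, with a median of 44.9%, and 47.2 to 55.9% in liver of control birds, with a median of 51.6%. In breast it took 53.7 to 59.8% in deficient birds, with a median of 58.1%, and 57.2 to 63.8% in control birds, with a median of 61.1%. The liver ranges met without crossing, and the breast ranges crossed. The other isoform has 4098 nt, and the lengths differ little, so the estimate rests on a short stretch of sequence.

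The isoform of EEF2 with 3430 nt took a median of 74.9% in liver of deficient birds and 71.2% in liver of control birds, and 75.1% in breast of deficient birds and 67.4% in breast of control birds, with ranges that crossed in both tissues. For EIF4A2 the isoform with 1845 nt took 94.7 to 96.6% in all 20 libraries. For EEF1A2 the isoform with 2160 nt took 0.586 to 1.41% in breast of deficient birds and 0.574 to 1.09% in breast of control birds. These shares were looked at after the gene values were seen and carry no test.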
